A study of Mus musculus with 4 samples.

Results

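The 32 genes described here encode enzymes and regulators that remove superoxide and peroxides, reduce oxidised proteins, or make and use glutathione. They were taken by symbol from the table of 32285 genes, and all 32 were found. Their transcripts were followed across sections of mouse ovary measured with Visium, an assay in which RNA released from a frozen section is caught on a grid of barcoded spots. Ovaries came from CD-1 mice, an outbred stock, aged naturally to 3 to 4 months (young) or 15 to 16 months (aged), and the labels name no genetic change and no treatment. With 4 animals per age, a young and an aged ovary were mounted side by side on every area of the slide, which gave 8 sections in 4 areas. A spot is a small region that can hold several cells of different types, so spots are described below by the marker genes that lead in them.

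Superoxide formed by mitochondria and by steroid-making cytochrome P450 enzymes is turned into hydrogen peroxide by superoxide dismutases. Catalase, glutathione peroxidases and peroxiredoxins then reduce the peroxide. Catalase breaks it down without a donor, while the peroxidases and peroxiredoxins draw electrons from glutathione or thioredoxin, which NADPH restores. Glutathione transferases couple glutathione to reactive lipids and foreign compounds. In the ovary these systems have long been studied in the corpus luteum, a steroid-making body that forms after ovulation and later regresses, and in ageing oocytes.

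Many of these genes are known targets of the transcription factor NRF2, which binds the antioxidant response element. The core of that element, TGACNNNGC, was searched on both strands of RefSeq promoter windows (GRCm38.p6, the assembly of mm10) reaching from 250 bases before to 50 bases after each annotated start. Windows were present for 27 of the 32 members, and 6 of these genes (22.2%) held a match in at least 1 window, namely Gclm, Mgst1, Prdx1, Sod1, Srxn1 and Txnrd1. Of all 27025 genes in the same table, 14.0% held a match. By window, 6 of 35 member windows (17.1%) and 12.4% of all 32851 windows held it. The match in Srxn1 began 28 bases after the start, and the others lay before it. Windows of Gpx3, Gpx1, Cat, Sod2, Gstm1 and Gstm2, all described below, held none, which says only that these letters are not in the window. The 250 bases before the start are shown for 3 members with a match and for Gpx3, the member whose level differed most between regions, with the core in capitals where present. In all 3 the core lies on the strand opposite to the gene, so its reverse complement is what is printed. The windows are Prdx1 at chr4:116685349-116685598, Gclm at chr3:122245307-122245556, Txnrd1 at chr10:82858956-82859205 and Gpx3 at chr11:54902604-54902853, all on the plus strand.
Prdx1: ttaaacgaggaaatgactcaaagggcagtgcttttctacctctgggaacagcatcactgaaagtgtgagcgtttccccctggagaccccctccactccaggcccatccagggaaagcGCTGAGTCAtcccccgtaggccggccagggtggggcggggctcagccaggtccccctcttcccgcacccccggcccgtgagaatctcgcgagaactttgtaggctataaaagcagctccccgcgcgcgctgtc
Gclm: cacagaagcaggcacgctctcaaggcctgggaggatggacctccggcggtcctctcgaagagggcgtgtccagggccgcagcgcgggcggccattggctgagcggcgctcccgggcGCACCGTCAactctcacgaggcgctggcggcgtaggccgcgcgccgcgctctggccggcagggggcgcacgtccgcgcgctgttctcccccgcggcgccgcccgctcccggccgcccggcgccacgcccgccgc
Txnrd1: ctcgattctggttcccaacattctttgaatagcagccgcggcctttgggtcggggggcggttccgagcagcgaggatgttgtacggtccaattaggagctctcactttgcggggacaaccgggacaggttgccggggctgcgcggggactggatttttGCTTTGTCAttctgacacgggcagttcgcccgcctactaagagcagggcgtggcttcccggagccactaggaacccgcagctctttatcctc
Gpx3: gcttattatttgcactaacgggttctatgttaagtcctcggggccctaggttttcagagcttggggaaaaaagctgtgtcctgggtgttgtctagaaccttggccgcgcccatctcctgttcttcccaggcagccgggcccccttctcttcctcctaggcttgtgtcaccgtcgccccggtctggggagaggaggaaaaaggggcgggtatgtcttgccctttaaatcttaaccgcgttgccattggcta
The core began 133 bases before the start in Prdx1, 134 bases before it in Gclm and 92 bases before it in this start of Txnrd1. In the GENCODE annotation used for gene positions, the Gpx3 and Txnrd1 windows lie inside the gene spans, which begin at chr11:54902453 and chr10:82833951. They are thus not upstream of those first starts. The counts do not tell which start was used.

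The tables held 4191 spots. Young sections had 532 or more spots and 9702600 to 21619232 UMIs, that is, counted molecules, and aged sections had 257 to 653 spots and 2777948 to 9506517 UMIs. The median per spot was 14990 to 28120 UMIs in young and 8779 to 14930 in aged sections, which did not overlap. The mitochondrially encoded share of UMIs was 0.597 to 1.88% in young and 1.31 to 2.96% in aged sections, and was higher in the aged section of all 4 areas. Summed CPM (UMIs of a gene per 1000000 UMIs) of endothelial markers was 574 to 768 in young and 427 to 569 in aged sections. That of adipocyte markers was 13.1 to 45.7 in young and 47.8 to 125 in aged sections. The part of these differences in the results below was not tested. Ages were assigned from the side of the area that the labels give. Area 3 ran against the other areas in oocyte markers, with 37.4 CPM in the young and 500 CPM in the aged section, and whether its ages are exchanged was not tested. Age results are therefore also given without it. Because all areas carry the same positional barcodes, pairs of areas shared up to 723 of them, which says nothing about shared cells.

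To place the members in the tissue, the 10% of spots with the highest mean log level of a marker list were taken in each section as a territory and set against the remaining spots of the same section. This was done for 7 lists, of oocyte, granulosa, luteal, theca, stromal fibroblast, surface epithelium and macrophage markers, and no member was on a list. Each territory held 414 of the 4173 spots with at least 500 UMIs. Its markers summed to a median of 23.0 times the rest for oocyte, 11.8 for granulosa, 2.58 for luteal, 3.00 for theca, 2.27 for stromal fibroblast, 15.5 for surface epithelium and 3.48 for macrophage lists. In the luteal list that ratio ranged from 0.938, in the young section of area 3, to 4.79. Luteal territory spots held 1.34 to 2.44 times the median UMIs of the rest, and oocyte territory spots 0.525 to 1.07 times. Oocyte markers summed to 3858 CPM in the oocyte territory of the young section of area 1. They summed to only 358 CPM in that of the young section of area 3. In the aged sections of areas 1, 2 and 4 the sums were 246, 496 and 319 CPM. Oocyte content is thus low in these territories, and its part in the oocyte results was not tested. Differences were tested with edgeR's quasi-likelihood test on summed counts with the section as a block, with Benjamini-Hochberg adjustment over all genes and a threshold of 0.05. Fewer cells of a type and less RNA per cell cannot be told apart in such sums.

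Of the 32 members, 28 differed from the rest of the section in at least 1 territory. The exceptions were Sod1 (cytosolic superoxide dismutase), Txn1 and Txn2 (cytosolic and mitochondrial thioredoxin) and Mgst3 (a microsomal glutathione transferase), which passed in 0 of 7. The share of all genes called in at least 1 territory was not counted, so 28 of 32 is not read as a trait of the members. Single territories called from 1032 of 11259 genes (macrophage) to 4077 of 11511 genes (granulosa). In the luteal territory 10 of 31 members tested were higher (against 14.4% of all genes) and 5 were lower (13.7%). In the granulosa territory 2 of 31 were higher (17.7%) and 16 were lower (17.7%). The oocyte territory had 2 of 32 higher (8.48%) and 11 lower (9.58%), and the theca territory 7 of 32 higher (6.24%) and 8 lower (8.76%). Around stromal fibroblast markers 5 of 32 were higher (9.58%) and 14 lower (10.5%), around surface epithelium markers 1 was higher (7.3%) and 12 lower (7.51%), and around macrophage markers 3 of 31 were higher (5.26%) and 3 lower (3.91%). Nqo1, a quinone reductase with 458 UMIs in all sections, was too low to be tested in the granulosa, luteal and macrophage territories.

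**Figure D1:**
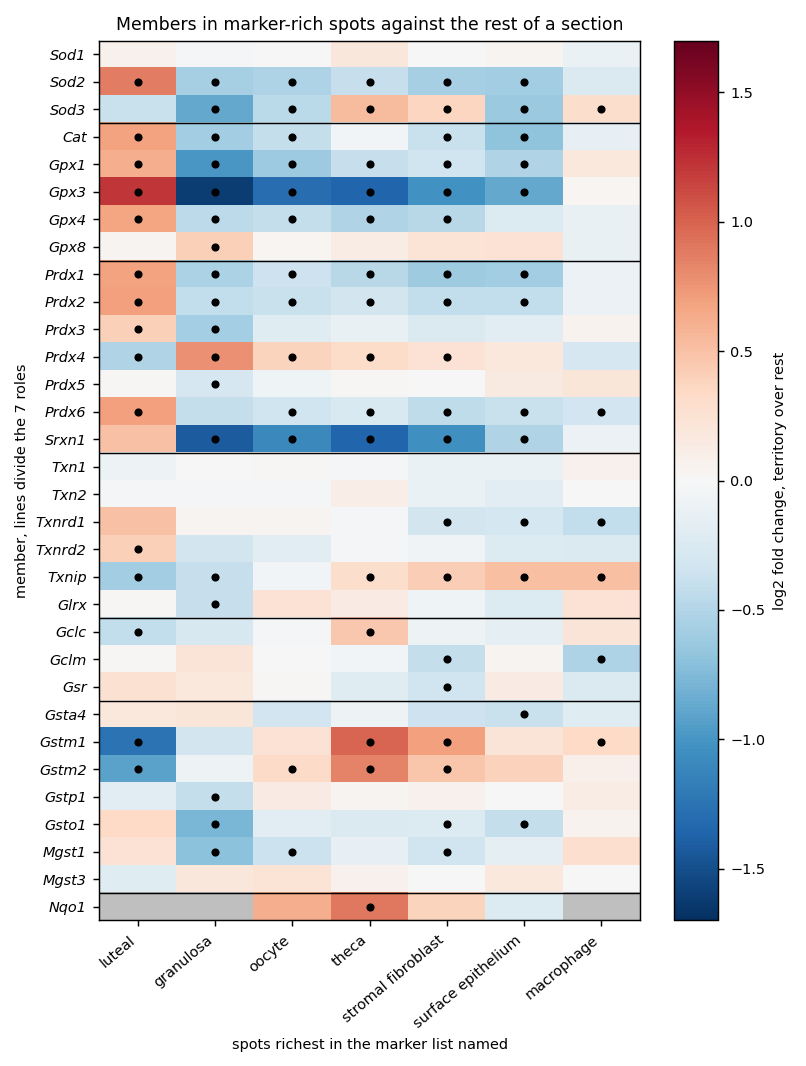
Log2 fold change of each member between the spots richest in a marker list and the rest of the same section, for 7 lists (columns) and 32 members (rows, grouped by role). Dots mark adjusted p under 0.05 and grey cells were not tested. The luteal column is mostly red where the granulosa to surface epithelium columns are blue. Of the members low in luteal spots, Prdx4 was called higher from the granulosa to the stromal fibroblast column. Gstm1, Gstm2 and Txnip were called higher in the theca and stromal fibroblast columns, and Txnip was called lower in granulosa spots.

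The 3 members with the largest rises in the luteal territory were Gpx3, Sod2 and Prdx6. Gpx3 (chr11:54902453-54910377), the secreted glutathione peroxidase, had 1116 to 8143 CPM (median 4786) in that territory and 838 to 3702 CPM (median 2130) in the rest of the 8 sections. It was higher in the territory in 7 of 8 sections, with a log2 fold change of 1.22 (SE 0.32, edgeR adjusted p = 0.0140), and the ranges of the territory and the rest overlapped. The exception was the young section of area 3, with 1896 CPM inside and 3702 CPM outside, the section whose luteal marker sum was also not raised there. Luteal spots were 10% of spots and held 12.03 to 17.8% of a section's UMIs, and 28.1% of all Gpx3 UMIs lay in them.

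Sod2 (chr17:13006846-13040063), the mitochondrial superoxide dismutase, was higher in 8 of 8 sections. It had 228 to 1205 CPM (median 307) in the luteal territory and 198 to 336 CPM (median 242) in the rest (log2 fold change 0.87, SE 0.18, edgeR adjusted p = 0.00346). The largest rises were in the young section of area 3 (1205 against 336 CPM) and the aged section of area 1 (697 against 290 CPM), with 574 against 290 CPM in the aged section of area 4, and the other 5 sections differed by less than 100 CPM. Luteal markers summed to 13490 CPM inside and 14390 CPM outside in the first of these sections. The sums were 10930 against 5557 CPM in the second and 23870 against 21280 CPM in the third. The largest Sod2 rise, in the young section of area 3, thus lay in a territory that was not richer in summed luteal markers. In the aged sections of areas 1 and 4 the territory was richer in them. Prdx6, a peroxiredoxin that acts on membrane lipid peroxides, had 212 to 665 CPM (median 385) inside and 202 to 304 CPM (median 240) outside (log2 fold change 0.70, SE 0.16, edgeR adjusted p = 0.00551), and was higher in 7 of 8 sections. Its highest value inside, 665 against 270 CPM outside, was also in the young section of area 3.

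The other members higher there were Prdx2 (0.69, SE 0.10), Cat (0.68, SE 0.17), Prdx1 (0.68, SE 0.12), Gpx4 (0.68, SE 0.12), Gpx1 (0.62, SE 0.17), Prdx3 (0.40, SE 0.14) and Txnrd2 (0.40, SE 0.13), all as log2 fold changes. Cat encodes catalase, Gpx4 the peroxidase that protects membranes, Prdx3 the mitochondrial peroxiredoxin and Txnrd2 the mitochondrial thioredoxin reductase. Prdx1, Prdx2 and Gpx4 were higher in 8 of 8 sections. Prdx3 and Txnrd2 were the weakest of these, and their calls were lost without the young section of area 1, the young section of area 3, the aged section of area 1 or the aged section of area 4. Srxn1, the sulfiredoxin that repairs over-oxidised peroxiredoxins, had a log2 fold change of 0.49 (SE 0.24) and did not pass.

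The mu-class glutathione transferases ran the other way. Gstm1 (chr3:108012255-108017973) had 208 to 345 CPM (median 286) in the luteal territory and 434 to 1317 CPM (median 693) in the rest, which did not overlap. It was lower in 8 of 8 sections (log2 fold change -1.25, SE 0.15, edgeR adjusted p = 9.34e-05). Its neighbour Gstm2 had 177 to 704 CPM (median 343) inside and 405 to 1078 CPM (median 652) outside (-0.91, SE 0.20), lower in 8 of 8 sections. Reads of such near copies may be shared between the Gstm genes, so their separate values are uncertain. Txnip, the thioredoxin-binding protein that restrains thioredoxin, had 229 to 618 CPM (median 382) inside and 446 to 999 CPM (median 626) outside (-0.59, SE 0.15). Prdx4, the peroxiredoxin of the endoplasmic reticulum (-0.52, SE 0.12), and Gclc, the catalytic subunit of the rate-limiting step of glutathione synthesis (-0.42, SE 0.13), were lower as well. The Gclc call was lost without the young section of area 3 and without the aged section of area 1, 3 or 4.

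**Figure D2:**
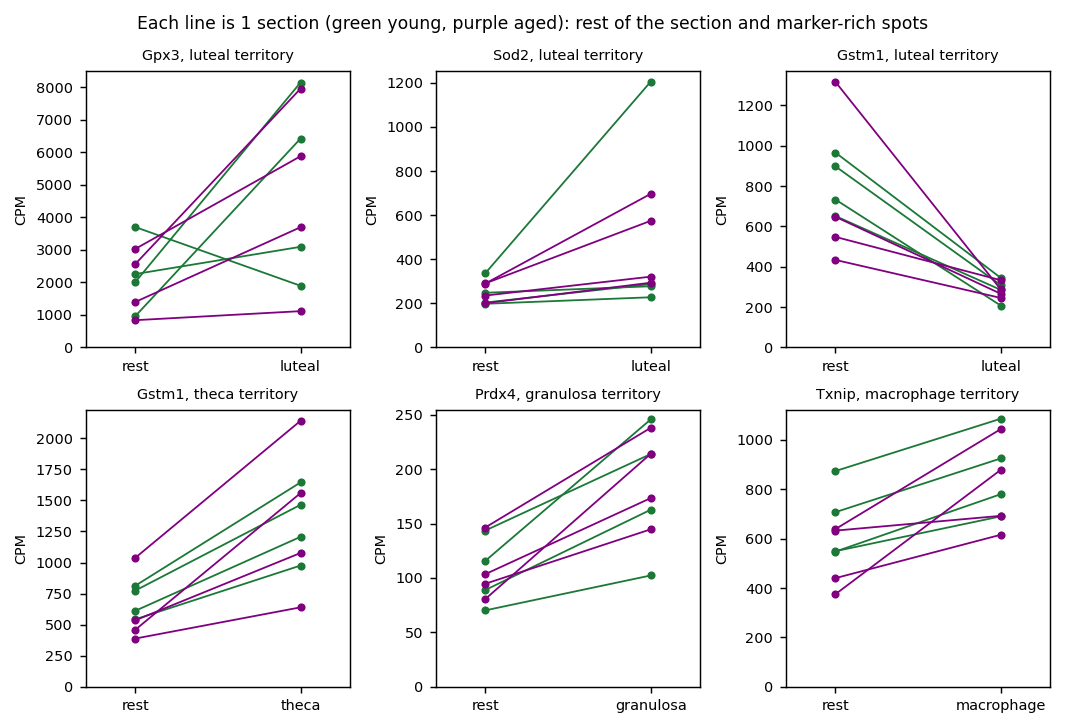
CPM in the rest of a section (left) and in its territory (right), with 1 line per section, green for young and purple for aged. Gpx3 rose in 7 of 8 and Sod2 in 8 of 8 luteal territories, Gstm1 fell in 8 of 8 luteal and rose in 8 of 8 theca territories, and Prdx4 (granulosa) and Txnip (macrophage) rose in 8 of 8.

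In the granulosa territory, the follicle cells that surround the oocyte, most called members were low. Gpx3 had 230 to 4227 CPM (median 791) inside and 1006 to 3877 CPM (median 2721) outside (log2 fold change -1.61, SE 0.27, edgeR adjusted p = 0.000449) and was lower in 7 of 8 sections, with the young section of area 3 again the exception. Srxn1 had 18.2 to 43.7 CPM (median 27.5) inside and 32.5 to 353 CPM (median 52.4) outside (-1.42, SE 0.29), lower in 8 of 8. Gpx1, the cytosolic glutathione peroxidase, had 290 to 1008 CPM (median 625) inside and 475 to 1659 CPM (median 1230) outside (-0.99, SE 0.15), also lower in 8 of 8. Sod3 (the extracellular superoxide dismutase, -0.88), Gsto1 (an omega-class transferase, -0.78) and Mgst1 (a microsomal transferase, -0.70) followed. Txnip, also low in luteal spots, was among the members called lower here.

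Prdx4 stood out in the opposite direction in these spots. It had 102 to 246 CPM (median 194) in the granulosa territory and 70.2 to 146 CPM (median 99.1) in the rest, and was higher in 8 of 8 sections (log2 fold change 0.78, SE 0.11, edgeR adjusted p = 0.000101). Gpx8, the other peroxidase of the endoplasmic reticulum among the members, had 93.3 to 207 CPM (median 126) inside and 60.3 to 121 CPM (median 105) outside (0.40, SE 0.15, edgeR adjusted p = 0.0484). The Gpx8 call was lost on leaving out any of the 8 sections, and without the young section of area 3 Mgst3 (0.33) was called in its place. The Prdx4 call was kept in all of these and in every other alternative.

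The oocyte territory overlapped the granulosa territory in 21.7% of its spots and resembled it in the leading lower members, Gpx3, Srxn1 and Gpx1. Each of these was called lower in 5 of 7 territories, so the likeness is not particular to this pair. Gpx3 had 395 to 2691 CPM (median 1032) inside and 875 to 3677 CPM (median 2700) outside (log2 fold change -1.29, SE 0.20). Srxn1 had 9.88 to 97.2 CPM (median 33.5) inside and 31.4 to 333 CPM (median 51.2) outside (-1.09, SE 0.19), and Gpx1 had 286 to 1245 CPM (median 771) inside and 468 to 1622 CPM (median 1194) outside (-0.62, SE 0.09). Prdx4 (0.37, SE 0.12) and Gstm2 (0.32, SE 0.09) were higher. Prdx4 had 95.2 to 336 CPM (median 141) inside and 71.1 to 150 CPM (median 106) outside, higher in 8 of 8 sections, and Gstm2 had 301 to 1367 CPM (median 890) inside and 382 to 958 CPM (median 577) outside, higher in 7 of 8. Neither call was stable: Prdx4 was lost without the young section of area 2, 3 or 4 or the aged section of area 3 or 4, and Gstm2 without the young section of area 2 or 4 or the aged section of area 4. The count of lower members fell from 11 to 6 without the young section of area 2 and to 7 without that of area 1. Scaling by library size alone gave 3 higher and 7 lower.

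The theca territory, rich in androgen-making cells around follicles, held the highest mu-class transferase levels relative to the rest. Gstm1 had 639 to 2141 CPM (median 1336) inside and 388 to 1037 CPM (median 577) outside and was higher in 8 of 8 sections (log2 fold change 0.99, SE 0.09, edgeR adjusted p = 2.45e-06). Gstm2 had 459 to 1859 CPM (median 1302) inside and 369 to 915 CPM (median 553) outside (0.84, SE 0.11), also in 8 of 8. Nqo1 had 0 to 16.4 CPM (median 9.23) inside and 3.10 to 8.12 CPM (median 4.07) outside (0.90, SE 0.22), higher in 7 of 8, with no UMI in the territory of the aged section of area 3.

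Sod3 (0.53, SE 0.11), Gclc (0.46, SE 0.09), Prdx4 (0.31, SE 0.09) and Txnip (0.29, SE 0.10) were the other members higher in theca spots. Lower there were Gpx3, with 296 to 2819 CPM (median 942) inside and 891 to 3656 CPM (median 2698) outside (-1.35, SE 0.22), and Srxn1, with 13.9 to 36.8 CPM (median 28.8) inside and 32.1 to 334 CPM (median 52.2) outside (-1.35, SE 0.21). Gpx4 had 647 to 839 CPM (median 750) inside and 786 to 1367 CPM (median 1032) outside (-0.51, SE 0.10). All 3 were lower in 8 of 8 sections.

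Spots rich in stromal fibroblast markers, 19.6% of which were also theca territory, had higher Gstm1, Gstm2 and Txnip. These spots were also rich in smooth muscle and pericyte markers, at a median of 2522 CPM against 744.5 CPM in the rest and higher in 8 of 8 sections, beside 3436 against 1552 CPM for the fibroblast markers. The part of smooth muscle in these results was not tested. Gstm1 had 622 to 1779 CPM (median 1099) inside and 375 to 1083 CPM (median 590) outside (log2 fold change 0.70, SE 0.08), Gstm2 had 458 to 1508 CPM (median 995) inside and 364 to 946 CPM (median 569) outside (0.48, SE 0.08), and Txnip had 632 to 1044 CPM (median 818) inside and 403 to 878 CPM (median 585) outside (0.42, SE 0.08). All 3 were higher in 8 of 8 sections. Prdx1, the cytosolic peroxiredoxin, had 1063 to 1792 CPM (median 1417) inside and 1385 to 2722 CPM (median 2118) outside (-0.61, SE 0.09) and was lower in 8 of 8. Srxn1 had 19.9 to 54.2 CPM (median 30.7) inside and 32 to 335 CPM (median 50.8) outside (-1.04, SE 0.23). Gpx3 had 257 to 3317 CPM (median 1202) inside and 876 to 3667 CPM (median 2669) outside (-1.03, SE 0.27). The 14 lower members became 9 without the young section of area 2, and scaling by library size gave 6 higher and 9 lower.

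At the surface epithelium Txnip alone among the members was higher, with 451 to 1154 CPM (median 942) inside and 386 to 864 CPM (median 581) outside (log2 fold change 0.51, SE 0.13). It was higher in 6 of 8 sections, and its call was lost without the aged section of area 1 or 2. No member was then higher, and without the young section of area 4 there were 2. Lower were Gpx3, with 375 to 2529 CPM (median 1243) inside and 866 to 3637 CPM (median 2746) outside (-0.87, SE 0.21), Cat, with 57.8 to 95.9 CPM (median 82.2) inside and 85.5 to 233 CPM (median 106) outside (-0.68, SE 0.16), and Sod3, with 39.4 to 98.9 CPM (median 63.2) inside and 46.2 to 135 CPM (median 109) outside (-0.62, SE 0.10). Sod3 was lower in 8 of 8 and the other two in 7 of 8 sections.

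Macrophage-rich spots had the fewest member calls, 3 higher and 3 lower of 31, and also the fewest calls over all genes, 1032 of 11259. Txnip had 616 to 1086 CPM (median 830) inside and 375 to 874 CPM (median 591) outside and was higher in 8 of 8 sections (log2 fold change 0.51, SE 0.10, edgeR adjusted p = 0.00327). Gclm, the modifier subunit of glutathione synthesis, had 19.9 to 33.4 CPM (median 29.5) inside and 27.6 to 76.7 CPM (median 42.7) outside and was lower in 8 of 8 (-0.52, SE 0.11, edgeR adjusted p = 0.00551). Txnrd1, the cytosolic thioredoxin reductase, had 46.0 to 103 CPM (median 58.2) inside and 49.1 to 104 CPM (median 83.6) outside (-0.42, SE 0.10), and its call was lost without the young section of area 2.

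Gstm1 had 399 to 1412 CPM (median 844) in macrophage-rich spots and 408 to 1124 CPM (median 616) outside (0.34, SE 0.09). Sod3 had 40.3 to 159 CPM (median 125) inside and 46.3 to 128 CPM (median 102) outside (0.30, SE 0.09), and Prdx6 had 180 to 265 CPM (median 214) inside and 206 to 349 CPM (median 267) outside (-0.32, SE 0.09). Each of these 3 calls was lost without the young section of area 1, of area 2 or of area 3, and without some aged sections. The 3 higher members became 1 without any of those sections, and the 3 lower ones became 1 without the young section of area 2.

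Luteal content moved with several territories. Luteal markers were lower in the territory than in the rest in 8 of 8 sections for 5 lists. Their median sums were 2474 CPM inside against 9127 CPM outside for granulosa, 3412 against 9001 for theca, 3111 against 9089 for stromal fibroblast, 5241 against 8936 for oocyte and 4359 against 9094 for surface epithelium lists. For the macrophage list they were 10880 against 8533 CPM, higher in 5 of 8 sections. The comparison was therefore repeated among spots below the section's median luteal level, an alternative chosen after seeing the data. It kept 84.8% of granulosa, 81.6% of theca, 81.2% of stromal fibroblast, 77.8% of oocyte, 71.7% of surface epithelium and 47.6% of macrophage territory spots.

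Among these spots the granulosa territory had 3 of 31 members higher (13.2% of all genes) and 15 lower (15.7%), in part other members than over all spots. Sod2 (-0.015), Gpx4 (-0.033), Prdx1 (-0.060) and Prdx2 (-0.078) were no longer called, nor was Gpx8 (0.27), whereas Gstm1, Gstm2, Gclc, Gsta4 and Txnrd1 were called among these spots and not over all spots. Sod3 (log2 fold change -1.24, SE 0.12) and Gstm1 (-0.95, SE 0.16) led the lower ones, Gpx3 was at -0.72 (SE 0.22), and Gsta4, a transferase for lipid aldehydes (0.64, SE 0.19), joined Prdx4 (0.48, SE 0.10) and Txnrd1 (0.25, SE 0.08) among the higher. In the theca territory 2 of 32 were higher (1.04%) and 0 lower (1.2%). The 2 were Gstm1 (0.48, SE 0.08, edgeR adjusted p = 0.00193) and Gstm2 (0.46, SE 0.08, edgeR adjusted p = 0.00243), while Gpx3 at -0.33 (SE 0.10, edgeR adjusted p = 0.0957) and Srxn1 at -0.47 (SE 0.15, edgeR adjusted p = 0.104) did not pass. Around stromal fibroblast markers 2 of 31 were higher (5.07%), Gstm1 (0.30, SE 0.06) and Txnip (0.23, SE 0.07), and 2 lower (3.78%), while Gpx3 was at -0.07 (SE 0.11).

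Oocyte spots then had 0 of 31 higher (2.71%) and 4 lower (2.19%), among them Sod3 (-0.66, SE 0.14) and Gpx3 (-0.56, SE 0.10). Surface epithelium spots had 0 of 31 higher (5.7%) and 2 lower (4.2%), Sod3 (-0.76, SE 0.14) and Cat (-0.42, SE 0.11). Macrophage spots had 3 of 31 higher (3.36%), Sod3 (0.52, SE 0.13), Txnip (0.45, SE 0.11) and Gpx1 (0.39, SE 0.11), and 2 lower (3.48%), Gclm (-0.69, SE 0.19) and Gsta4 (-0.45, SE 0.13).

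**Figure D3:**
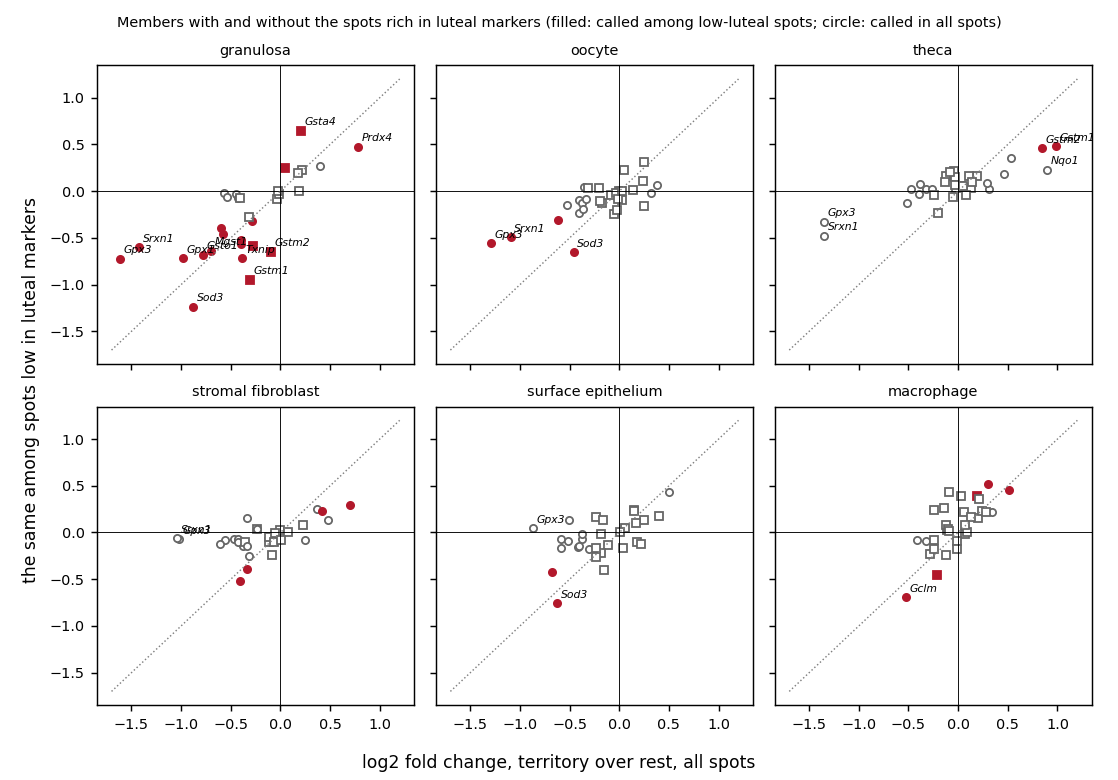
Log2 fold change of each member between a territory and the rest, over all spots (x) and among spots low in luteal markers (y), for 6 territories. Filled points were called among low-luteal spots, circles were called over all spots, and the dotted line marks equality. In the stromal panel Gpx3 and Srxn1, on the left, lie near 0 on the y axis, in the theca panel they lie at -0.33 and -0.47, and in the granulosa panel many points stay below 0.

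Single spots were compared next. Over the 195 to 742 spots of a section with at least 5000 UMIs, Gpx3 followed the luteal marker level with a Spearman correlation of 0.22 to 0.88 (median over the 8 sections 0.76), and Prdx1 with one of 0.03 to 0.79 (median 0.62). Gstm1 ran against it (median -0.54) and followed the theca marker level (0.28 to 0.73, median 0.62). Spots of a section share a library and neighbouring spots share tissue, and depth was higher in luteal spots, so these values are descriptions.

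Between members the closest pair was Gstm1 and Gstm2 (median 0.79), which may share reads, then Txnip and Gstm1 (0.51), Gpx3 and Prdx1 (0.51) and Gpx1 and Prdx1 (0.48). The most opposed pair was Prdx1 and Gstm1 (-0.42). Of the 496 pairs, 374 had a median between -0.1 and 0.1, which at these counts says little. Neighbouring spots were alike in Gpx3, with a Moran's I (the correlation of a spot with its neighbours) of 0.51 to 0.84, median 0.80, and in Prdx1, median 0.65, but hardly in Txnrd2, median 0.016.

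Thinned to 5000 UMIs per spot, a median of 57.4% of spots held a UMI of a given member across members and sections. Prdx1 was seen in 98.9 to 100% of such spots and Nqo1 in 1.71 to 6.41%. Unthinned, Nqo1 was seen in 3.11 to 16.1% of spots. The 10% of spots with the highest Gpx3 level held 21.1 to 49.4% of its UMIs, with the young section of area 1 the most concentrated.

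**Figure D4:**
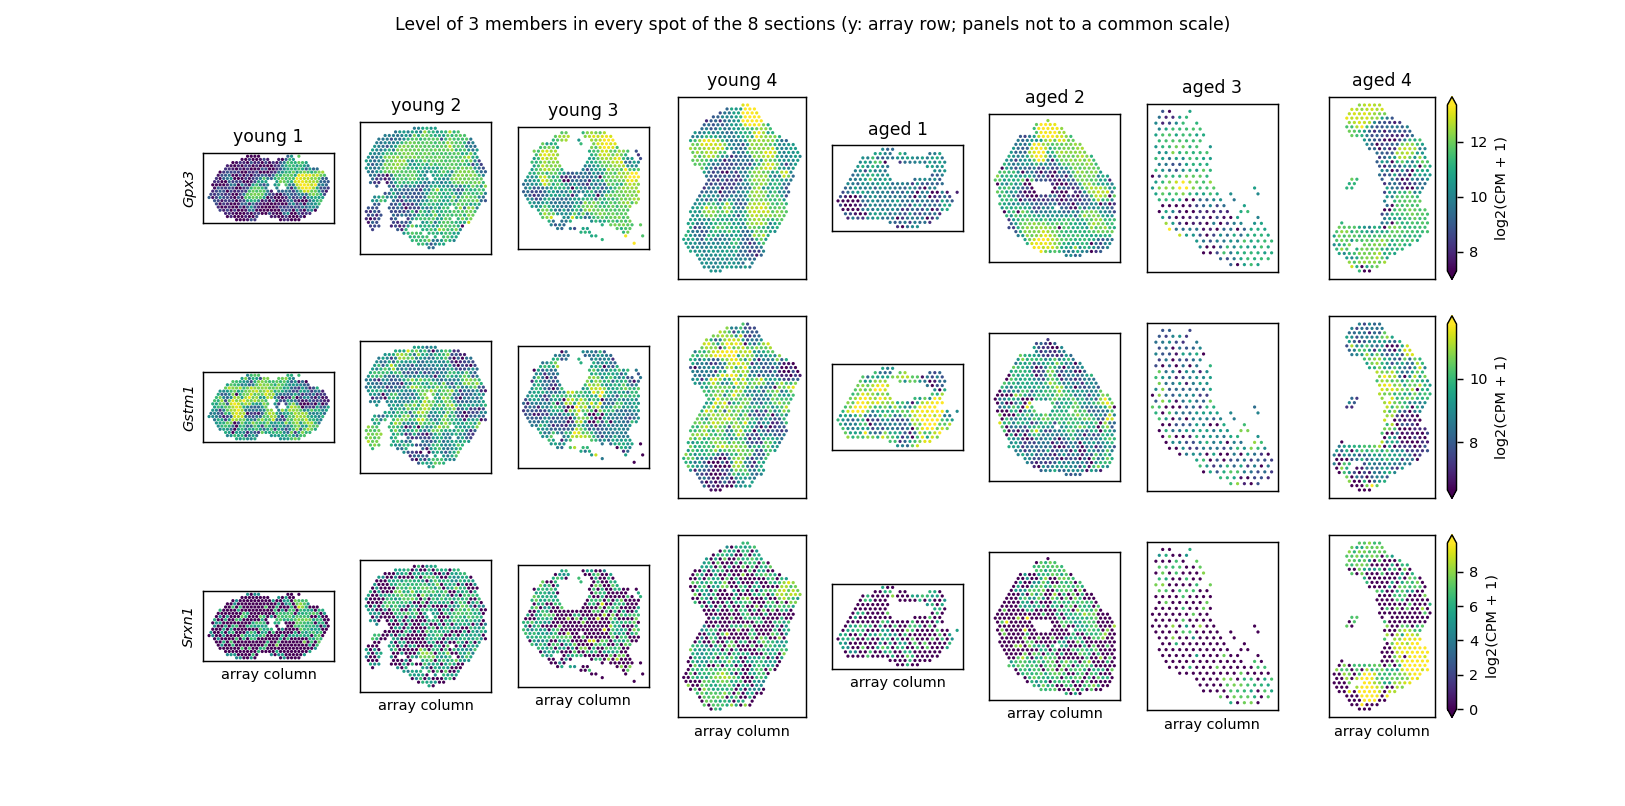
Log2(CPM + 1) of Gpx3, Gstm1 and Srxn1 in every spot of the 4 young and 4 aged sections, drawn by array row and column, with 1 colour scale per gene. Judged by eye only, Gpx3 and Gstm1 tend to be high in different parts of most sections. Srxn1 is high in patches of the aged section of area 4.

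Between ages, over whole sections, 0 of the 32 members passed the edgeR test, as did 0 of 14044 genes (0%), with unadjusted p under 0.05 in 1 member and in 2.79% of all genes. DESeq2 called 0 members and 5 genes. The members' young and aged levels overlapped in all 32, against 1.38% of all genes without overlap. Of the members 17 were above and 15 below 0, with a median log2 fold change (aged over young) of 0.01, equal to the 0.01 of all genes. Without both sections of area 3 the median was 0.04, 20 members were above 0, none was called, and 25 kept their sign. The members together took 1.38 to 1.48% of UMIs in young and 1.02 to 1.55% in aged sections.

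The 1 member with an unadjusted p under 0.05 was Mgst3 (chr1:167371966-167393841). It had 99.6, 86.4, 109 and 99.2 CPM in the young and 82.3, 68.6, 97.9 and 75.7 CPM in the aged sections of areas 1 to 4. The ages overlapped, since the aged section of area 3 exceeded the young section of area 2, and the aged section was the lower in 4 of 4 areas (log2 fold change -0.27, SE 0.12, unadjusted p = 0.0429 and adjusted p = 1 in edgeR). Leaving out any 1 section gave -0.30 to -0.25, and leaving out area 3 gave -0.29.

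Of the superoxide dismutases, Sod1 (0.02, SE 0.19), Sod2 (0.06, SE 0.30) and Sod3 (-0.11, SE 0.34) lay near 0 as log2 fold changes with wide errors. Gpx3 had 1712, 2376, 3381 and 2743 CPM in young and 885, 3378, 1722 and 3525 CPM in aged sections, with the aged section higher in areas 2 and 4 and lower in areas 1 and 3 (-0.03, SE 0.46). Gpx1 had 1269, 1191, 1130 and 1298 CPM in young sections, a narrow range, and 984, 1598, 454 and 1145 CPM in aged sections, which spread on either side of it (-0.15, SE 0.39). Gpx4 had 934, 1325, 1005 and 782 CPM in young and 998, 1163, 802 and 1250 CPM in aged sections, and the ages overlapped (0.08, SE 0.29). Cat (0.29, SE 0.30) and Gpx8 (0.08, SE 0.26) did not pass.

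Among peroxiredoxins, Prdx1 had 2231, 2479, 1987 and 1908 CPM in young and 2145, 1802, 1343 and 2656 CPM in aged sections, with the young range inside the aged one (-0.09, SE 0.30). Prdx2 had 948, 1114, 1037 and 1013 CPM in young and 1107, 1115, 807 and 1084 CPM in aged sections, where area 3 alone fell below the young values (0.03, SE 0.24). Prdx3, Prdx4, Prdx5 and Prdx6 had log2 fold changes of 0.06, 0.02, 0.12 and -0.05. Prdx6 has a near copy, Prdx6b, whose reads may be counted with it.

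Srxn1 (chr2:152105516-152111376) had the largest log2 fold change of the members, 1.22 (SE 0.67, unadjusted p = 0.0997 and adjusted p = 1 in edgeR), and it rested on 1 section. Its levels were 37.6, 50, 50.3 and 68.9 CPM in young and 31.8, 67.2, 45.4 and 319 CPM in aged sections. Without the aged section of area 4 the log2 fold change was -0.05. In that section Srxn1 was the most patchy, with a Moran's I of 0.80 against -0.01 to 0.36 in the other 7, and its correlation over spots was 0.59 with the luteal marker level and 0.67 with Akr1c18, an enzyme that breaks down progesterone and marks regressing luteal cells. The same section had the highest luteal marker sum (21730 CPM against 6465 to 14230 CPM) and the highest Hsd17b7 (2202 CPM against 51.1 to 541 CPM), a steroid enzyme of luteal cells. Within it, however, the luteal territory held 190 CPM and the rest 347 CPM of Srxn1. The part of luteal content in its level was not tested.

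In the thioredoxin and glutaredoxin system, Txn1 (0.08), Txnrd1 (-0.02), Txnrd2 (0.24) and Glrx (0.00) did not pass. Txnip had 568, 725, 891 and 560 CPM in young and 452, 638, 679 and 415 CPM in aged sections and was the lower in the aged section of 4 of 4 areas, though the ages overlapped (-0.31, SE 0.24, unadjusted p = 0.233 in edgeR). Txn2 was also lower in 4 of 4 areas (-0.09, SE 0.26). The 3 genes of glutathione synthesis and recycling, Gclc (0.15), Gclm (0.23) and Gsr, the glutathione reductase (0.13), lay above 0, and none passed.

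All 7 glutathione transferases among the members lay below 0, with log2 fold changes from -0.30 to -0.13 and a median of -0.22, and none passed. The class as a whole did not share this. Of 18 tested transferases outside the members, 10 lay above and 8 below 0, with a median of 0.02. Of all genes, 52.5% lay above 0. Gsto1 reached 0.05 without the young section of area 2, and Gstp1 0.01 without that of area 4. Gsta4, Gstm2, Mgst1 and Mgst3 stayed below 0 on leaving out any 1 section. Mgst1, a membrane-bound transferase, had 1308, 1037, 839 and 883 CPM in young and 789, 1201, 534 and 664 CPM in aged sections, higher with age in area 2 alone (-0.30, SE 0.34). Gstm1 was highest of all in the aged section of area 1 at 1143 CPM and lowest in that of area 3 at 407 CPM, so that its log2 fold change of -0.13 (SE 0.35) ranged from -0.51 without the former to 0.08 without the latter. Gstp1, whose copy Gstp2 may share its reads, was at -0.17 (SE 0.29), and Nqo1 at 0.03 (SE 0.46).

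**Figure D5:**
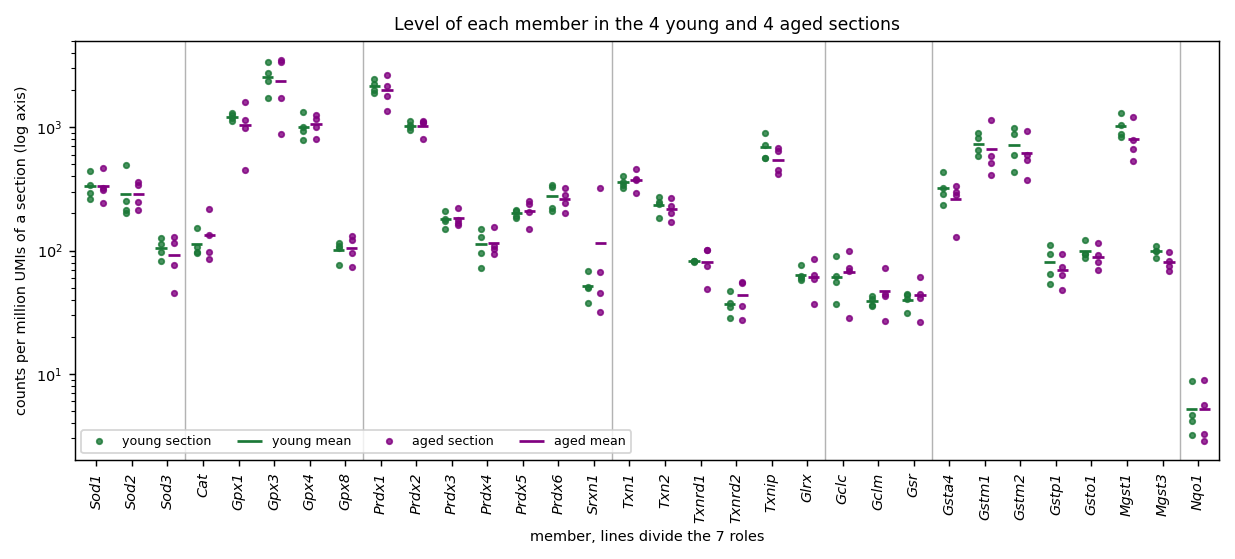
CPM (log axis) of the 32 members in the 4 young (green) and 4 aged (purple) sections, with bars at the means and vertical lines between roles. The ages overlap for every member, and the aged section with 319 CPM of Srxn1 lies above the other 7.

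Within the territories the ages were compared as well, and 0 genes passed in any of the 7 for age or for its interaction with territory (0% in each), with DESeq2 not run there. Unadjusted p under 0.05 was reached by 188 to 433 genes per territory for age and by 219 to 838 for the interaction. Unadjusted p under 0.05 for age was reached by 2 of 31 members in granulosa (384 of 9304 genes), 2 of 31 in macrophage (305 of 9024 genes) and 0 in the other 5 territories. Gpx3 in granulosa territories had 605, 907, 4227 and 1267 CPM in young and 230, 852, 730 and 453 CPM in aged sections, of which the second aged value lies above the first young one (log2 fold change -1.48, SE 0.56, unadjusted p = 0.0214 and adjusted p = 0.999 in edgeR). Its interaction with age was -1.18 (SE 0.43, adjusted p = 0.632 in edgeR). The young section of area 3 was the highest, and without area 3 the age difference was -0.85 (SE 0.46, adjusted p = 0.592 in edgeR) and the interaction -1.10 (SE 0.28, adjusted p = 0.198 in edgeR).

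Gsta4 in granulosa territories had 216, 252, 261 and 260 CPM in young and 957, 234, 132 and 821 CPM in aged sections, with the aged sections of areas 1 and 4 above all young ones and those of areas 2 and 3 within or below (1.13, SE 0.51, adjusted p = 0.999 in edgeR, and 1.41, SE 0.41, adjusted p = 0.242 without area 3). These were also the sections with the highest granulosa marker sums, at 1310 and 920 CPM against 145 to 463 CPM elsewhere, and the part of this in the Gsta4 level was not tested. In macrophage territories Gsta4 (-0.90, SE 0.29) and Srxn1 (0.79, SE 0.33) had unadjusted p under 0.05 and adjusted p of 1.00 in edgeR. Unadjusted p under 0.05 for the interaction was reached by 5 of 31 members in granulosa (700 of 11511 genes) and 3 of 31 in macrophage (494 of 11259 genes). In theca (508 of 11272 genes), stromal fibroblast (512 of 11241) and surface epithelium (838 of 11610) it was reached by 2 of 32 members each, and in the other territories by 0. All had adjusted p of 0.568 or more in edgeR.

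Without area 3, an alternative added after these values were seen, again 0 members passed in any territory, for age or for the interaction. Genes called for age were then 3 in oocyte, 5 in theca, 15 in stromal fibroblast, 3 in macrophage and 0 in the other territories. Of the members, Gsta4 in macrophage spots came closest, with an interaction of -0.89 (SE 0.15, adjusted p = 0.0954 in edgeR). Mgst3 had unadjusted p under 0.05 for age in oocyte (-0.46), granulosa (-0.63), theca (-0.46) and stromal fibroblast (-0.47) spots, with edgeR adjusted p of 0.313 or more.

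The other genes of these pathways, 92 in 7 lists covering oxidase partners, further glutathione peroxidases and transferases, glutathione turnover, thioredoxin partners, NADPH supply and NRF2 regulation, were tested in the same fits. Between ages 0 of 83 tested passed in edgeR, 0 had an unadjusted p under 0.05, and the median log2 fold change was -0.04. In the luteal territory 12 of 75 were higher (14.4% of all genes), led by Idh1 and Me1, which supply NADPH (1.41 and 0.76), Sesn3 (0.91) and the ferritin light chain Ftl1 (0.84), and 13 were lower (13.7%), led by Gsta2 (-1.60) and Gstt1 (-1.32), both transferases, and Ggt5 (-1.18), which cleaves glutathione conjugates. The theca territory had 12 of 76 higher (6.24%), led by Gsta2 (1.66) and the epoxide hydrolase Ephx1 (1.07), and 8 lower (8.76%). The granulosa territory had 5 of 76 higher (17.7%), led by Gpx7 (1.3), a peroxidase of the endoplasmic reticulum, and 26 lower (17.7%), led by Mgst2 (-1.44) and the haem oxygenase Hmox1 (-1.39). Macrophage spots had 8 of 76 higher (5.26%), led by Hpgds (1.69) and Cybb (1.45), the catalytic subunit of the phagocyte oxidase, and 3 lower (3.91%).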

How the data were processed

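Spatial gene expression was measured in 4 capture areas with 1 young and 1 aged ovary section each. The authors deposited unnormalized UMI counts for each gene in each spot, and position files with array and pixel positions. Space Ranger 1.2.1 and mm10 are named in the submitters' processing notes. Annotation, filters and use of strand in counting: not given in the sources used here. A further 72 tissue spots lacked counts and did not enter. The upper and left sides of an area were taken to be those of low pixel numbers. Were an image rotated, young and aged would be swapped. The 2 sections of an area were parted where positions left the widest gap within their middle 60%, and assignment by k-means differed for 11 spots.

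Counts were summed per section, or per territory and rest, and tested with edgeR 4.0.16 (limma 3.58.1, R 4.3.3, TMM scaling, filterByExpr). DESeq2 1.42.0 was an alternative. CPM used total counts without TMM factors, so their ratios can differ from the log2 fold changes. They are not divided by gene length, so levels are not compared between genes. Spot levels were logged with a pseudocount of 1 after scaling to 10000 UMIs, with numpy 2.4.6, pandas 2.3.3 and scipy 1.17.1 in Python 3.11.15. Gene positions came from GENCODE M21 (mm10). Area numbers pair sections of an area, and deviations from the age means correlated by 0.00258, 0.182, -0.194 and 0.205, so the area was used as a block in an alternative only. On data simulated for age (13944 genes, 10 false calls), 73.7% of genes changed by a log2 fold of 1 were recovered. Of those changed by 2, 100% were recovered. For the luteal territory the shares were 88.8 and 100% (11432 genes, 6 false calls). The shares for age are over 99 and 97 changed genes and need not hold for members with wide errors, such as Srxn1 (SE 0.67).

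The members and the lists were chosen with earlier results of these data known. Every member was described by role. Values in every section were given for members with an unadjusted p under 0.05 or no overlap between ages, and for the 6 with the highest mean CPM. The lowest, median and highest of the 8 sections were given for the 3 called members with the largest log2 fold change in each direction per territory. Age values of Srxn1, Txnip and Gstm1 by section were added after their values were seen, and of the called pathway genes only those with the largest changes are named.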

Additional observations from a re-analysis of the deposited data

Results flagged for a closer look

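Of 102 groups of values examined, 8 held 1 section far from the others of its group. Chance alone would flag about 1 of 20 groups. In the aged sections, Prdx2 was lowest in area 3 at 807 CPM, against 1084 to 1115 CPM in the other 3, and Srxn1 was highest in area 4 at 319 CPM, against 31.8 to 67.2 CPM.

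As log2 ratios of CPM + 1 between a territory and the rest, the aged section of area 4 stood apart 4 times. Srxn1 was at -3.66 in the granulosa territory (the other 7 sections lay at -1.51 to -0.21) and at -2.95 in the stromal fibroblast territory (others -1.23 to 0.12). Gstm1 was at 1.77 in the theca territory (others 0.72 to 1.05) and at 1.44 in the stromal fibroblast territory (others 0.52 to 0.78).

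The aged section of area 3, with the fewest spots and UMIs, stood apart in the other 2. Nqo1 was at -2.04 in its theca territory (others 0.30 to 1.24), where no UMI of Nqo1 was counted, and Gclm was at -1.36 in its macrophage territory (others -0.62 to -0.28).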

How the results depend on the processing

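With the area number as a replicate block, 0 genes and 0 members passed between ages (435 genes at an unadjusted p under 0.05 in edgeR), and the block changed no call within territories. DESeq2 called 5 genes between ages where edgeR called 0. Of the 99 calls of members in territories, 65 were kept on leaving out each section in turn and 32 in every alternative run. Counts that moved by more than 1.5 times follow. Members higher in the oocyte territory (2) were 0 with 5% of spots as territory, 1 with 20%, 1 with RLE scaling, 0 without a filter, 1 with spots of at least 5000 UMIs and 0 among low-luteal spots. Those lower there (11) were 7 with 20% of spots, 7 with library size scaling and 4 among low-luteal spots. Granulosa higher (2) was 1 with RLE scaling and 1 without a filter. Among low-luteal spots theca had 2 higher and 0 lower, stromal fibroblast 2 and 2 (9 lower with library size scaling) and surface epithelium 0 and 2 (2 higher with library size scaling). Macrophage higher (3) was 1 with 5% of spots, 5 with 20% and 1 without a filter, and lower (3) was 1 with 5% of spots. Leaving out single sections gave 0 to 3 higher and 6 to 11 lower in oocyte, 1 to 2 higher in granulosa, 9 to 15 lower in stromal fibroblast, 0 to 2 higher in surface epithelium, and 1 to 3 higher and 1 to 3 lower in macrophage. It gave 0 to 1 genes called between ages within the theca, stromal fibroblast and macrophage territories, and leaving out area 3, added later, gave 3 such genes in oocyte, 5 in theca, 15 in stromal fibroblast and 3 in macrophage spots. The cause of these moves was not tested, beyond fewer spots or sections entering.

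Among low-luteal spots 11 called log2 fold changes turned sign, none then passing: in oocyte Prdx1 (0.042) and Gstm2 (-0.024), in theca Sod2 (0.076), Prdx1 (0.021), Prdx2 (0.025) and Prdx6 (0.019), in stromal fibroblast Gpx1 (0.16), Prdx4 (-0.084) and Gsto1 (0.033), and in surface epithelium Gpx3 (0.043) and Srxn1 (0.13). The share of spots with a UMI was 29.5% thinned to 2000 UMIs and 82.0% unthinned, against 57.4%. Depth limits the aged section of area 3 most, and members at a few UMIs per spot, such as Nqo1.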
